A study of Homo sapiens with 15 samples.

Results

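The genes described here make, sense, move, store, export or oxidise cholesterol. They were chosen by symbol from a list of 31 genes that follows the synthesis steps in order and then uptake, storage and export. Of these, 29 had a named probe set, out of 17687 genes measured, and the other 2, FDFT1 and MYLIP, are not analysed here. Each of the 29 had 1 probe set. They comprised 18 enzymes listed along the route to cholesterol and 11 genes of sterol sensing, transport, storage, export and oxysterol synthesis. The 18 include GGPS1, which belongs to a side branch, and all counts and means over the 18 enzymes include it.

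RNA levels were measured with single-colour microarrays in ASC52 cells, a human line of adipose-derived mesenchymal stem cells immortalised with telomerase (hTERT), in 3 groups of 5 arrays. DED cells were ASC52 adipocytes obtained by 14 days in an adipogenic medium, begun 3 days after seeding, and then kept for 7 days in medium conditioned by MDA-MB-231 cells, a human breast carcinoma line. MA cells, labelled mature adipocytes, had the same differentiation and then 7 days in control medium, RPMI with 10% serum, which was also the base of the conditioned medium. MSC cells were ASC52 cells that had not been differentiated, and the sources used here do not give their medium or time of harvest, so that differentiation, medium and time cannot be told apart in any comparison with MSC. All groups carry hTERT and come from 1 line, the dilution of the conditioned medium is not given, and no label states that the 5 arrays of a group are separate cultures. The p-values therefore reflect spread between arrays that may be technical in part or whole.

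Cells obtain cholesterol by synthesis from acetyl-CoA through mevalonate, isoprenoids, squalene and lanosterol, and by uptake of lipoproteins. When sterol in the endoplasmic reticulum is scarce, the escort protein SCAP carries the transcription factor precursor SREBP2, the product of SREBF2, to the Golgi for cleavage, and the released factor raises genes of synthesis and uptake. INSIG proteins hold that complex back when sterol is plentiful, while oxysterols activate the LXR receptors, which raise exporters such as ABCA1. Adipocytes store a large share of the body's cholesterol, much of it unesterified at the surface of lipid droplets.

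The values are log2 intensities, so that a difference of 1 is a 2-fold difference, and they compare 1 gene between groups, not different genes. The 15 arrays had medians of 7.03 to 7.09, and the lowest correlation within a group over all genes was 0.9816 between DED arrays 1 and 3, against 0.9918 among MA arrays and 0.9923 among MSC arrays. The median over negative control probe sets was 4.80, and 95% of them lay under 8.31. Of the 29 genes, 20 had means above that percentile in all 3 groups, 6 (HMGCS1, MVK, PMVK, HSD17B7, ABCG1 and CYP27A1) were under it in all 3, and ACAT2, TM7SF2 and CH25H were under it in 1 or 2 groups. Differences with a mean under 8.31 depend on background and are given as log2 differences with no fold. The labelled cell types were checked with marker genes. The mean of 7 adipocyte markers was 10.10 to 11.57 in DED arrays, with array 1 the highest, 12.57 to 12.74 in MA arrays and 5.39 to 5.58 in MSC arrays. The mean of 5 dividing cell markers was 6.15 to 6.92 in DED arrays, 8.53 to 9.05 in MA arrays and 11.12 to 11.22 in MSC arrays. In such bulk samples fewer cells of a type and less RNA per cell cannot be told apart.

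Most enzymes of cholesterol synthesis were lower in cells kept in conditioned medium than in mature adipocytes. With limma and an adjusted p under 0.05, 15 of the 29 genes fell and 7 rose in DED against MA cells, where 13.0% of all genes fell, 12.9% rose and 25.9% passed in either direction. The 18 enzymes held 13 of those falls and 1 rise, and the 11 other genes held 2 falls and 6 rises. The median log2 difference was -0.81 over the enzymes and 0.76 over the other genes, against 0.02 over all genes. The 5 DED arrays did not overlap with the 5 MA arrays for 17 of the 29 genes, 11 lower and 6 higher, against 18.1% of all genes.

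In MA against MSC cells 12 of the 29 genes rose and 6 fell, where 15.4% of all genes rose, 17.6% fell and 33.0% passed in either direction. Of the 18 enzymes 9 rose and 3 fell, with a median of 0.37, and of the 11 other genes 3 rose and 3 fell, with a median of 0.23, against 0.00 over all genes. The arrays of the 2 groups did not overlap for 17 of the 29 genes, against 27.0% of all genes. In DED against MSC cells 7 rose and 9 fell, with a median of -0.03 against 0.03 over all genes, where 17.1% of all genes rose, 16.4% fell and 33.4% passed in either direction. The arrays did not overlap for 14 of the 29, against 25.1% of all genes. The comparisons share arrays of each group, so that their differences are not independent of each other, and each gene is therefore given below by its levels in all 3 groups.

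**Figure D1:**
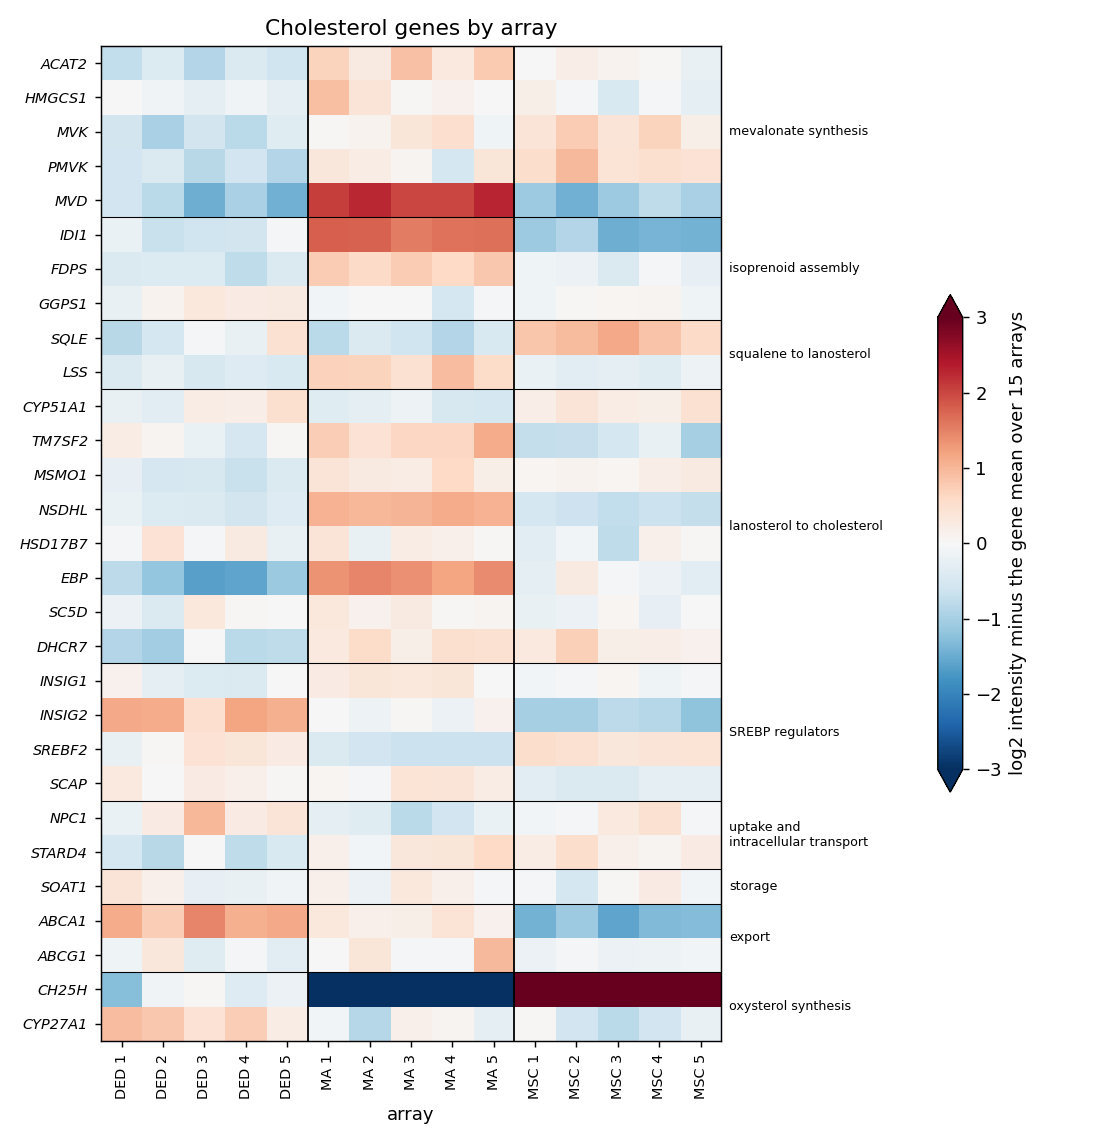
Log2 intensity of the 29 cholesterol genes in each of the 15 arrays, minus the mean of the gene over all arrays, with genes in rows by role and arrays in columns (DED, MA and MSC, 5 each). Colours run from -3 to 3, and CH25H exceeds that range in MA and MSC arrays. MVD, IDI1, NSDHL and EBP are highest in all 5 MA arrays, while INSIG2 and ABCA1 are highest in all 5 DED arrays.

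The early enzymes, which turn acetyl-CoA into isopentenyl diphosphate, were all lower in DED cells than in MA cells, and MVD differed the most. MVD, the decarboxylase that completes isopentenyl diphosphate, had 10.02, 9.79, 9.14, 9.63 and 9.17 in the DED arrays, 12.68, 12.87, 12.61, 12.60 and 12.89 in the MA arrays and 9.51, 9.16, 9.51, 9.85 and 9.63 in the MSC arrays. All MA arrays lay above every DED and MSC array, and the DED and MSC arrays overlapped. MVD was 9.06-fold lower in DED than in MA cells (log2 difference -3.18, SE 0.16, adjusted p = 1.82e-11) and 9.18-fold higher in MA than in MSC cells (3.20, SE 0.16, adjusted p = 3.56e-12). DED and MSC cells differed by 0.02 (95% interval -0.32 to 0.36, adjusted p = 0.954).

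ACAT2, the cytosolic thiolase that joins acetyl-CoA units, had 8.09, 8.41, 7.94, 8.38 and 8.21 in the DED arrays, 9.49, 9.08, 9.70, 9.12 and 9.60 in the MA arrays and 8.83, 9.02, 8.93, 8.85 and 8.60 in the MSC arrays. The 3 groups did not overlap, and DED arrays lay lowest. ACAT2 fell by 1.19 in DED against MA cells (SE 0.14, adjusted p = 1.22e-06), rose by 0.55 in MA against MSC cells (SE 0.14, adjusted p = 0.00337) and fell by 0.64 in DED against MSC cells (SE 0.14, adjusted p = 0.000917). The mevalonate kinase MVK averaged 7.19 ± 0.24 in DED, 8.01 ± 0.26 in MA and 8.31 ± 0.23 in MSC cells (SD, n = 5 each). It fell by 0.82 in DED against MA cells (SE 0.15, adjusted p = 0.000239), its MA and MSC arrays overlapped, and it fell by 1.12 in DED against MSC cells (SE 0.15, adjusted p = 3.49e-06).

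PMVK, which adds the next phosphate to mevalonate, averaged 6.44 ± 0.19 in DED, 7.19 ± 0.37 in MA and 7.66 ± 0.23 in MSC cells. It fell by 0.75 in DED against MA cells (SE 0.16, adjusted p = 0.00131) and by 1.22 in DED against MSC cells (SE 0.16, adjusted p = 3.46e-06). Its fall of 0.47 in MA against MSC cells (SE 0.16, adjusted p = 0.0281) was lost without MA array 4 (adjusted p = 0.087) or MSC array 2 (adjusted p = 0.0909). HMGCS1, the synthase of the step after ACAT2, was the least certain of the early enzymes. It averaged 7.60 ± 0.12 in DED, 8.04 ± 0.37 in MA and 7.63 ± 0.24 in MSC cells, with 8.65 in MA array 1 and 7.74 to 8.15 in the other MA arrays. It passed in DED against MA cells (log2 difference -0.45, SE 0.16, adjusted p = 0.0409) and in MA against MSC cells (0.42, SE 0.16, adjusted p = 0.0471). Without MA array 1 these became -0.30 (adjusted p = 0.126) and 0.27 (adjusted p = 0.151). Leaving out MA array 2, DED array 2, 4 or 5 or DED arrays 1 and 3 together, or fitting only the 2 groups compared, also ended both calls, DED array 3 ended the call in DED against MA cells, and MSC array 2, 3, 4 or 5 ended that in MA against MSC cells.

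Isoprenoid enzymes moved likewise except for GGPS1. IDI1, the isomerase that makes the activated isoprenoid unit, had 11.85, 11.38, 11.45, 11.50 and 12.01 in the DED arrays, 13.84, 13.83, 13.60, 13.68 and 13.72 in the MA arrays and 10.96, 11.18, 10.59, 10.66 and 10.63 in the MSC arrays. The groups did not overlap, and DED arrays lay between MSC and MA arrays. IDI1 was 4.28-fold lower in DED than in MA cells (log2 difference -2.10, SE 0.14, adjusted p = 6.15e-10), 7.62-fold higher in MA than in MSC cells (2.93, SE 0.14, adjusted p = 1.35e-12) and 1.78-fold higher in DED than in MSC cells (0.83, SE 0.14, adjusted p = 7.12e-05).

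FDPS, which assembles farnesyl diphosphate, the last unit shared with protein prenylation, had 10.65, 10.69, 10.69, 10.34 and 10.65 in the DED arrays, 11.86, 11.66, 11.85, 11.70 and 11.91 in the MA arrays and 10.96, 10.91, 10.66, 11.03 and 10.84 in the MSC arrays. Every MA array lay above the others, while DED and MSC arrays overlapped. FDPS was 2.28-fold lower in DED than in MA cells (-1.19, SE 0.11, adjusted p = 4.2e-08) and 1.89-fold higher in MA than in MSC cells (0.92, SE 0.11, adjusted p = 7.79e-07). In DED against MSC cells its difference of -0.28 (adjusted p = 0.0533) passed in 6 alternative analyses, which were quantile normalization (adjusted p = 0.0274), dim genes left out (adjusted p = 0.0388), an intensity trend (adjusted p = 0.0363), array weights (adjusted p = 0.0144) and DED array 3 (adjusted p = 0.0493) or MSC array 3 (adjusted p = 0.0257) left out. GGPS1, which draws isoprenoids away from sterol synthesis into geranylgeranyl groups, averaged 11.32 ± 0.22 in DED, 11.04 ± 0.22 in MA and 11.16 ± 0.11 in MSC cells, with overlap between all groups. It did not pass in DED against MA (adjusted p = 0.119), MA against MSC (adjusted p = 0.538) or DED against MSC cells (adjusted p = 0.378), but without DED array 1 its difference in DED against MA cells was 0.37 (adjusted p = 0.0262).

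**Figure D2:**
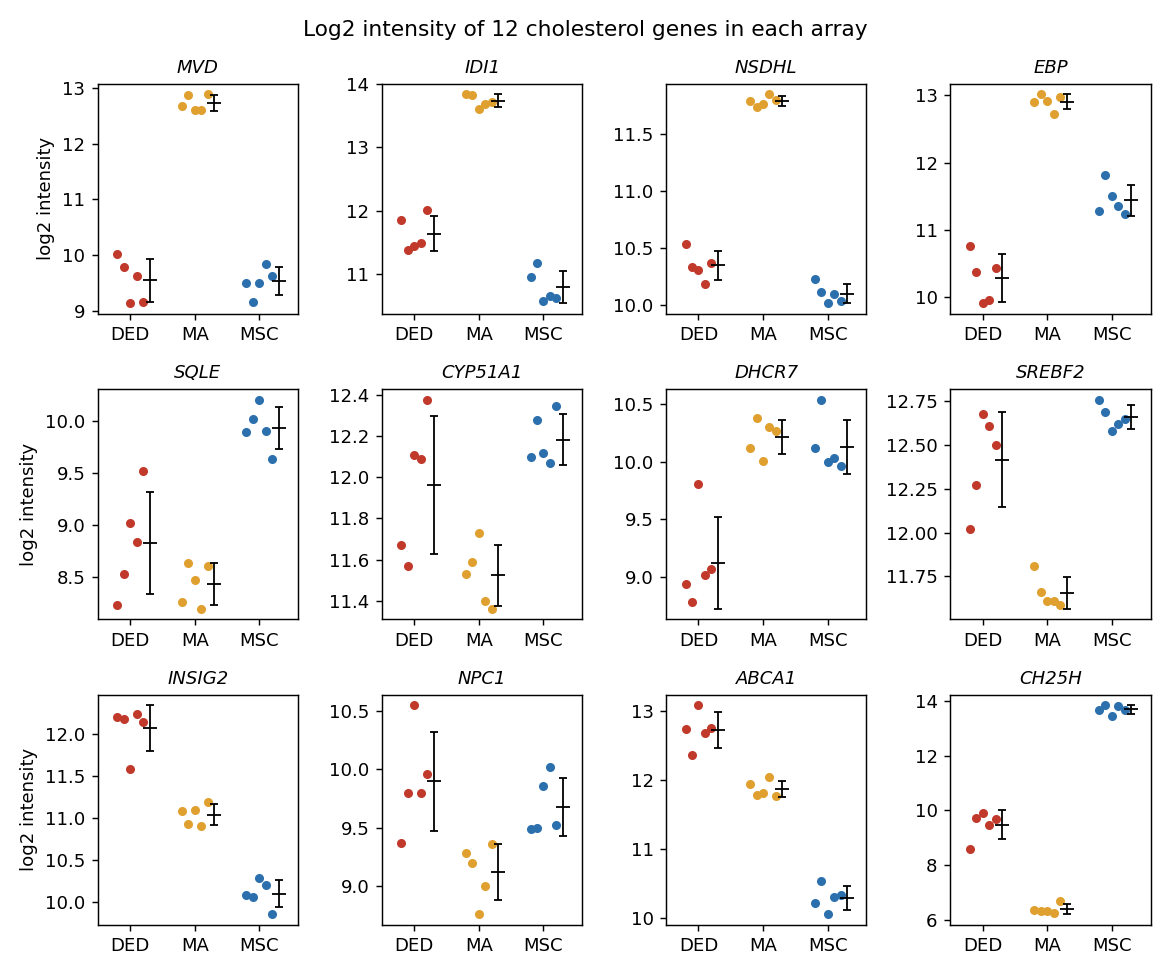
Log2 intensity of 12 cholesterol genes in each array (points) with the mean and SD of each group beside the points (horizontal and vertical bars, n = 5), for DED, MA and MSC from left to right, with a separate vertical scale for each gene. For MVD, IDI1, NSDHL and EBP all MA arrays lie above the rest, for CYP51A1, SREBF2 and NPC1 the MA mean is the lowest, and ABCA1 and INSIG2 are highest in DED arrays.

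The enzymes around squalene and lanosterol did not move together. SQLE, the epoxidase that controls flux after squalene, had 8.23, 8.53, 9.02, 8.83 and 9.52 in the DED arrays, 8.25, 8.63, 8.47, 8.19 and 8.60 in the MA arrays and 9.90, 10.02, 10.21, 9.91 and 9.64 in the MSC arrays. MSC arrays lay above all others, and DED and MA arrays overlapped. SQLE was 2.84-fold lower in MA than in MSC cells (-1.51, SE 0.18, adjusted p = 1.47e-06) and 2.16-fold lower in DED than in MSC cells (-1.11, SE 0.18, adjusted p = 6.25e-05). Its difference of 0.40 in DED against MA cells did not pass (95% interval 0.01 to 0.78, adjusted p = 0.128), but without DED array 1, the lowest of its group, it was 0.55 (adjusted p = 0.021), and without DED arrays 1 and 3 it was 0.53 (adjusted p = 0.0491). LSS, which closes the squalene epoxide into lanosterol, averaged 9.55 ± 0.10 in DED, 10.61 ± 0.18 in MA and 9.69 ± 0.09 in MSC cells. It was 2.08-fold lower in DED than in MA cells (-1.06, SE 0.11, adjusted p = 1.68e-07) and 1.90-fold higher in MA than in MSC cells (0.93, SE 0.11, adjusted p = 5.62e-07).

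Of the 8 enzymes from lanosterol to cholesterol, 5 fell and 1 rose in DED against MA cells, against 13.0% and 12.9% of all genes. The count of rises was near the share over all genes. EBP, a sterol isomerase, had 10.76, 10.38, 9.91, 9.96 and 10.44 in the DED arrays, 12.90, 13.02, 12.92, 12.73 and 12.97 in the MA arrays and 11.28, 11.82, 11.50, 11.36 and 11.24 in the MSC arrays. The groups did not overlap, and DED arrays lay lowest. EBP was 6.14-fold lower in DED than in MA cells (-2.62, SE 0.15, adjusted p = 9.13e-11), 2.77-fold higher in MA than in MSC cells (1.47, SE 0.15, adjusted p = 1.48e-07) and 2.22-fold lower in DED than in MSC cells (-1.15, SE 0.15, adjusted p = 3.76e-06).

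NSDHL, a dehydrogenase that helps remove methyl groups from the sterol ring, had 10.54, 10.34, 10.31, 10.19 and 10.37 in the DED arrays, 11.79, 11.74, 11.76, 11.85 and 11.80 in the MA arrays and 10.23, 10.12, 10.02, 10.10 and 10.04 in the MSC arrays. MA arrays lay above all others, and DED array 4 lay within the range of the MSC arrays. NSDHL was 2.71-fold lower in DED than in MA cells (-1.44, SE 0.09, adjusted p = 4.96e-10) and 3.22-fold higher in MA than in MSC cells (1.69, SE 0.09, adjusted p = 1.76e-11). Its difference of 0.25 in DED against MSC cells (SE 0.09, adjusted p = 0.0497) stood at the threshold and lost its call in 17 of 24 alternative analyses (adjusted p up to 0.16), among them those without DED array 1, 2, 3 or 5, without any 1 MA array, without MSC array 2, 3, 4 or 5 and with a replicate block (adjusted p = 0.076).

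DHCR7, the reductase that yields cholesterol from its dehydro precursor, had 8.94, 8.78, 9.81, 9.02 and 9.07 in the DED arrays, 10.12, 10.38, 10.01, 10.30 and 10.27 in the MA arrays and 10.12, 10.54, 10.00, 10.03 and 9.96 in the MSC arrays. DED arrays lay below all others, array 3 the least so, and MA and MSC arrays overlapped. DHCR7 was 2.13-fold lower in DED than in MA cells (-1.09, SE 0.16, adjusted p = 3.3e-05) and 2.01-fold lower in DED than in MSC cells (-1.01, SE 0.16, adjusted p = 4.9e-05), and it did not pass in MA against MSC cells (0.09, 95% interval -0.26 to 0.43, adjusted p = 0.752). MSMO1, the oxygenase that begins methyl removal, had the same order with smaller differences. It averaged 12.73 ± 0.15 in DED, 13.52 ± 0.17 in MA and 13.33 ± 0.09 in MSC cells, and was 1.73-fold lower in DED than in MA cells (-0.79, SE 0.11, adjusted p = 1.25e-05) and 1.52-fold lower in DED than in MSC cells (-0.60, SE 0.11, adjusted p = 0.000169).

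TM7SF2, a sterol reductase, averaged 7.80 ± 0.28 in DED, 8.58 ± 0.25 in MA and 7.25 ± 0.29 in MSC cells, so that only the MA mean exceeded the negative controls' 95th percentile. It fell by 0.78 in DED against MA cells (SE 0.16, adjusted p = 0.000974) and rose by 1.33 in MA against MSC cells (SE 0.16, adjusted p = 1.17e-06) and by 0.56 in DED against MSC cells (SE 0.16, adjusted p = 0.0098). CYP51A1, the lanosterol demethylase, went the other way. It had 11.67, 11.57, 12.11, 12.09 and 12.38 in the DED arrays, 11.53, 11.59, 11.73, 11.40 and 11.36 in the MA arrays and 12.10, 12.28, 12.12, 12.07 and 12.35 in the MSC arrays. MA arrays lay below all MSC arrays, and DED arrays spread over both ranges. CYP51A1 was 1.58-fold lower in MA than in MSC cells (-0.66, SE 0.14, adjusted p = 0.00079). Its rise in DED against MA cells (0.44, SE 0.14, adjusted p = 0.0229) was the only rise among the 18 enzymes there, and it was lost when MA array 4 or 5 or DED array 3, 4 or 5 was left out (adjusted p = 0.0524 to 0.0767).

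HSD17B7, a ketone reductase of the sterol ring, and SC5D, a sterol desaturase, passed in no comparison. HSD17B7 averaged 7.07 ± 0.26 in DED, 7.11 ± 0.23 in MA and 6.80 ± 0.36 in MSC cells, and its 95% interval for DED against MA cells was -0.39 to 0.30. SC5D averaged 11.08 ± 0.28 in DED, 11.29 ± 0.12 in MA and 11.00 ± 0.14 in MSC cells, with an interval of -0.48 to 0.05. Over the 18 enzymes the mean log2 intensity of an array was 9.47 to 9.58 in DED cells, 10.36 to 10.51 in MA cells and 9.73 to 9.92 in MSC cells. The groups of arrays did not overlap in this mean, and the DED arrays lay lowest. The adipocyte marker mean was also highest in MA arrays, and its part in the enzymes' levels was not tested.

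**Figure D3:**
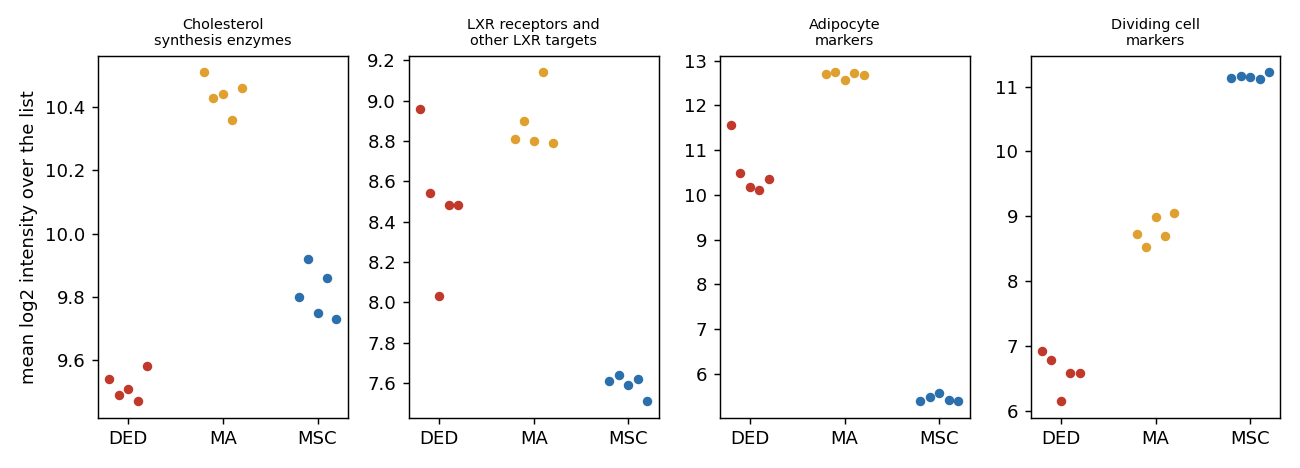
Mean log2 intensity over 18 enzymes listed for cholesterol synthesis, 11 genes listed with the LXR receptors, 7 adipocyte markers and 5 dividing cell markers in each array (points). The 11 include RXRB and ABCA transporters that were not checked as LXR targets. Groups are DED, MA and MSC from left to right, with a separate vertical scale for each panel. The enzyme means are 9.47 to 9.58 in DED, 10.36 to 10.51 in MA and 9.73 to 9.92 in MSC arrays, whereas the dividing cell markers are highest in MSC arrays.

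Of SREBP2 and its 3 regulators, SREBF2 and INSIG2 rose, INSIG1 fell and SCAP did not pass in DED against MA cells. SREBF2, which encodes SREBP2, had 12.02, 12.27, 12.68, 12.61 and 12.50 in the DED arrays, 11.81, 11.66, 11.61, 11.61 and 11.59 in the MA arrays and 12.76, 12.69, 12.58, 12.62 and 12.65 in the MSC arrays. MA arrays lay below all others, and DED and MSC arrays overlapped. SREBF2 was 1.69-fold higher in DED than in MA cells (0.76, SE 0.12, adjusted p = 5.33e-05) and 2.01-fold lower in MA than in MSC cells (95% interval of the log2 difference -1.25 to -0.76, adjusted p = 9.36e-07). In DED against MSC cells its difference of -0.24 (adjusted p = 0.129) passed only after quantile normalization (-0.30, adjusted p = 0.0444).

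INSIG2, a retention protein, had 12.20, 12.18, 11.58, 12.24 and 12.14 in the DED arrays, 11.08, 10.92, 11.09, 10.90 and 11.19 in the MA arrays and 10.08, 10.06, 10.28, 10.20 and 9.85 in the MSC arrays. The groups did not overlap and ran from MSC at the bottom to DED at the top. INSIG2 was 2.04-fold higher in DED than in MA cells (1.03, SE 0.13, adjusted p = 3.66e-06), 1.92-fold higher in MA than in MSC cells (0.94, SE 0.13, adjusted p = 6.72e-06) and 3.93-fold higher in DED than in MSC cells (1.97, SE 0.13, adjusted p = 1.44e-10). INSIG1, the other retention protein, averaged 10.77 ± 0.26 in DED, 11.24 ± 0.15 in MA and 10.93 ± 0.07 in MSC cells. Its arrays overlapped between all groups, and it was 1.38-fold lower in DED than in MA cells (-0.47, SE 0.12, adjusted p = 0.00629). INSIG1 missed the threshold in MA against MSC cells (0.31, adjusted p = 0.0571) and passed it there in 8 alternative analyses. These left out MA array 5 (0.37, adjusted p = 0.0278), DED array 1 (adjusted p = 0.0338), DED array 3 (adjusted p = 0.0484), DED arrays 1 and 3 (adjusted p = 0.031) or dim genes (adjusted p = 0.0434), or used an intensity trend (adjusted p = 0.0391), array weights (adjusted p = 0.0276) or only the 2 groups compared (adjusted p = 0.0259). SCAP, the escort protein, averaged 13.21 ± 0.13 in DED, 13.28 ± 0.20 in MA and 12.72 ± 0.09 in MSC cells. It was higher than in MSC cells both in MA cells (0.56, SE 0.11, adjusted p = 0.000427) and in DED cells (0.49, SE 0.11, adjusted p = 0.00148), and DED and MA cells differed by -0.07 (95% interval -0.30 to 0.16, adjusted p = 0.716).

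Among the genes of sterol transport and storage, NPC1 rose, STARD4 fell and SOAT1 did not pass in DED against MA cells. NPC1, which releases cholesterol from late endosomes, had 9.37, 9.80, 10.55, 9.80 and 9.96 in the DED arrays, 9.28, 9.20, 8.76, 9.00 and 9.36 in the MA arrays and 9.49, 9.50, 9.86, 10.02 and 9.52 in the MSC arrays. DED arrays lay above the MA arrays, although DED array 1 exceeded the highest of them by little. NPC1 was 1.71-fold higher in DED than in MA cells (0.78, SE 0.18, adjusted p = 0.00252). Its fall in MA against MSC cells (-0.56, SE 0.18, adjusted p = 0.0202) was lost without MA array 3 (adjusted p = 0.0631) or MSC array 4 (adjusted p = 0.0625).

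STARD4, a soluble carrier of cholesterol, had 9.73, 9.42, 10.25, 9.50 and 9.80 in the DED arrays, 10.40, 10.17, 10.59, 10.63 and 10.85 in the MA arrays and 10.48, 10.79, 10.40, 10.34 and 10.51 in the MSC arrays. DED array 3 overlapped with the MA arrays, and the other DED arrays lay below them. STARD4 was 1.73-fold lower in DED than in MA cells (-0.79, SE 0.15, adjusted p = 0.000579) and 1.70-fold lower in DED than in MSC cells (-0.76, SE 0.15, adjusted p = 0.000506). SOAT1, which esterifies cholesterol for storage, averaged 9.51 ± 0.28 in DED, 9.59 ± 0.20 in MA and 9.45 ± 0.28 in MSC cells, with intervals of -0.40 to 0.24 for DED against MA and -0.18 to 0.46 for MA against MSC cells.

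Of the exporters, ABCA1 rose in all comparisons and ABCG1 was not above background. ABCA1, which loads cholesterol onto apolipoprotein A-I, had 12.73, 12.36, 13.08, 12.68 and 12.75 in the DED arrays, 11.94, 11.78, 11.80, 12.04 and 11.76 in the MA arrays and 10.21, 10.53, 10.05, 10.30 and 10.33 in the MSC arrays. The groups did not overlap, with MSC lowest and DED highest. ABCA1 was 1.81-fold higher in DED than in MA cells (0.86, SE 0.13, adjusted p = 3.01e-05), 2.99-fold higher in MA than in MSC cells (1.58, SE 0.13, adjusted p = 3.87e-09) and 5.41-fold higher in DED than in MSC cells (2.44, SE 0.13, adjusted p = 4.07e-12). ABCG1, which passes cholesterol to lipoprotein particles, averaged 3.71, 4.06 and 3.69 in DED, MA and MSC cells, below the median of the negative controls, and passed in no comparison.

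CH25H, the hydroxylase that makes 25-hydroxycholesterol, varied the most of all 29 genes. It had 8.58, 9.74, 9.90, 9.47 and 9.69 in the DED arrays, 6.37, 6.30, 6.32, 6.23 and 6.70 in the MA arrays and 13.69, 13.85, 13.46, 13.83 and 13.69 in the MSC arrays. The groups lay far apart, MA lowest and MSC highest, and DED array 1 was the lowest of its group. CH25H rose by 3.09 in DED against MA cells (SE 0.19, adjusted p = 1.53e-10), and fell by 7.32 in MA against MSC cells (SE 0.19, adjusted p = 1.88e-16). The MA values lay under the negative controls' 95th percentile, so these sizes depend on background. In DED against MSC cells, both above it, CH25H was 18.7-fold lower (-4.23, SE 0.19, adjusted p = 2.63e-13). CYP27A1, a mitochondrial sterol hydroxylase, averaged 7.47 ± 0.28 in DED, 6.64 ± 0.41 in MA and 6.41 ± 0.33 in MSC cells. It rose by 0.83 in DED against MA cells (SE 0.19, adjusted p = 0.00253) and by 1.06 in DED against MSC cells (SE 0.19, adjusted p = 0.000164), all at levels under that percentile.

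**Figure D4:**
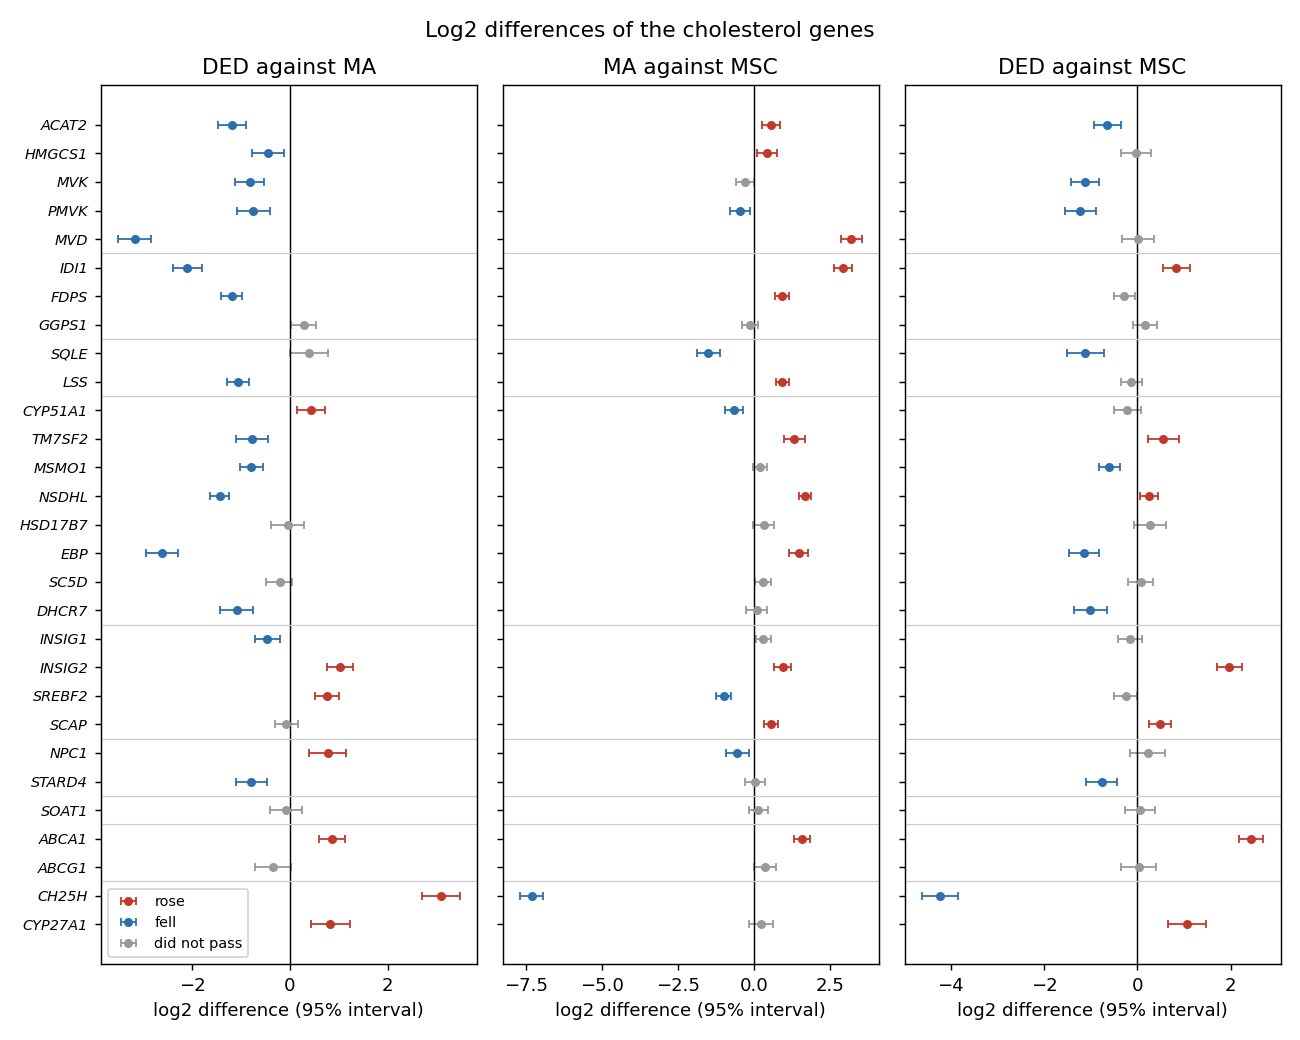
Log2 difference of each of the 29 cholesterol genes with its 95% interval (bars, limma, not adjusted for multiple tests) for DED against MA, MA against MSC and DED against MSC, with a separate horizontal scale in each panel. In DED against MA 15 genes fell (blue) and 7 rose (red), and CH25H has the largest rise and MVD the largest fall.

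Ordered by group means, 9 of the 29 genes ran MA over DED over MSC, 9 ran MA over MSC over DED and 4 ran MSC over DED over MA, while 3 ran DED over MA over MSC, 2 ran DED over MSC over MA and 2 ran MSC over MA over DED. Many neighbours in these orders overlapped, as given above. Spread within a group was larger in DED arrays. The median SD over the 29 genes was 0.28 in DED, 0.18 in MA and 0.17 in MSC cells. Of the DED arrays, array 1 was the highest in 10 genes and the lowest in 5, and array 3 was the highest in 8 and the lowest in 8. With DED arrays 1 and 3 left out, 14 of the 29 genes fell and 8 rose in DED against MA cells.

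Genes next to these steps were taken from 6 lists, whose counts are to be read against the 13.0% of all genes that fell and the 12.9% that rose in DED against MA cells. Of 8 genes of acetyl-CoA supply and SREBP processing, 4 fell and 1 rose in DED against MA cells, the rises being near the share over all genes. ACSS2, which makes acetyl-CoA from acetate, had 9.15, 8.56, 8.13, 7.94 and 8.29 in the DED arrays, 11.83, 11.95, 11.83, 12.03 and 11.95 in the MA arrays and 6.55, 6.76, 6.50, 6.26 and 6.47 in the MSC arrays. The groups did not overlap, and ACSS2 fell by 3.50 in DED against MA cells (SE 0.17, adjusted p = 1.03e-11). ACLY, which makes acetyl-CoA from citrate, was 3.75-fold lower in DED than in MA cells (-1.91, SE 0.17, adjusted p = 3.16e-08). SREBF1, the relative of SREBF2 that drives fatty acid synthesis, averaged 14.03 ± 0.29 in DED, 15.09 ± 0.04 in MA and 13.20 ± 0.21 in MSC cells and was 2.08-fold lower in DED than in MA cells (-1.06, SE 0.13, adjusted p = 4.12e-06), where SREBF2 rose. SYVN1, a ubiquitin ligase of the endoplasmic reticulum, rose by 0.36 (SE 0.10, adjusted p = 0.0131), and without MA array 5 or DED array 3 the count of rises in that list was 2.

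Of 11 genes of the prenyl, dolichol and ubiquinone branches, which use the same isoprenoids, 2 fell and 1 rose in DED against MA cells, near the shares over all genes (13.0% and 12.9%). DHDDS, a subunit of the enzyme that builds dolichol, was 1.46-fold lower (-0.54, SE 0.12, adjusted p = 0.00137) and DOLK, the dolichol kinase, was 1.26-fold higher (0.33, SE 0.10, adjusted p = 0.0166), and PDSS2, at levels near background, fell by 0.59 (SE 0.18, adjusted p = 0.0187). The count of falls was 1 without MA array 2 or 5 and 3 without MA array 4 or DED array 2. The median over the list was -0.22, against -0.81 over the 18 enzymes.

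Of 10 lipoprotein receptors and proteins of endosomal sterol release 3 fell in DED against MA cells and 0 rose in limma, with 1 higher at an unadjusted p under 0.05 and 1 rise without MA array 4 or DED array 1. CD36, a fatty acid and lipoprotein receptor, fell by 3.69 (SE 0.22, adjusted p = 1.73e-10). LIPA, the lysosomal lipase that frees cholesterol from lipoprotein esters, averaged 10.92 ± 0.50 in DED, 12.89 ± 0.13 in MA and 10.84 ± 0.14 in MSC cells and was 3.92-fold lower in DED than in MA cells (-1.97, SE 0.17, adjusted p = 3.58e-08), whereas NPC1 of the following step rose. Of 15 sterol carriers and ester hydrolases 4 fell and 2 rose, against 13.0% and 12.9% of all genes, so that the rises were near the share over all genes. The falls included LIPE, the hormone-sensitive lipase that also cleaves cholesterol esters (-1.47, SE 0.26, adjusted p = 0.000192), and TSPO, a mitochondrial sterol-binding protein (-1.30, SE 0.14, adjusted p = 5.34e-07). The rises were OSBPL10 (0.58, SE 0.17, adjusted p = 0.0162) and GRAMD1A (0.43, SE 0.13, adjusted p = 0.0152), both sterol-binding proteins, and their count was 1 without MA array 3 and 3 without MA array 2 or MSC array 2.

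Of 10 other enzymes of oxysterols and bile acids 5 fell and 1 rose in DED against MA cells, against 13.0% and 12.9% of all genes. The count of rises was thus near the share over all genes. The rise was that of CYP7B1, which hydroxylates 25-hydroxycholesterol, the product of CH25H. CYP7B1 had 9.65, 9.53, 8.57, 9.24 and 9.71 in the DED arrays, 6.42, 7.21, 6.14, 6.54 and 6.29 in the MA arrays and 6.57, 6.68, 6.13, 6.19 and 6.61 in the MSC arrays. DED arrays lay above all others, and MA and MSC arrays overlapped under the negative controls' 95th percentile. CYP7B1 rose by 2.82 in DED against MA cells (SE 0.21, adjusted p = 3.41e-09) and by 2.90 in DED against MSC cells (SE 0.21, adjusted p = 7.3e-10). The largest falls were those of AKR1C2 (-2.58, SE 0.17, adjusted p = 5e-10) and AKR1C1 (-2.27, SE 0.14, adjusted p = 1.77e-10), reductases of steroids and ketones so alike in sequence that probe sets may not separate them.

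The 11 genes listed with the LXR receptors also hold RXRB and the transporters ABCA6, ABCA7, ABCA8, ABCA9 and ABCA10, which were not checked as LXR targets. Counts over this list therefore do not describe LXR targets alone. Of the 11, 3 fell and 0 rose in DED against MA cells in limma, against 13.0% and 12.9% of all genes. ABCA1, which is not in the list, rose there, and the median over the list was -0.23. At an unadjusted p under 0.05, 4 were lower and 0 higher. LPCAT3, an enzyme that remodels phospholipids, was 3.34-fold lower in DED than in MA cells (-1.74, SE 0.21, adjusted p = 2.3e-06), ABCA6, a transporter of the ABCA family, was 2.34-fold lower (-1.23, SE 0.27, adjusted p = 0.00154), and NR1H3, which encodes LXR-alpha, fell by 0.72 (SE 0.12, adjusted p = 9.05e-05). In MA against MSC cells 6 of the 11 rose and 0 fell in limma (0 lower at an unadjusted p under 0.05), with a median of 0.87, while ABCA1 rose too. The mean of the list was 8.03 to 8.96 in DED arrays, 8.79 to 9.14 in MA arrays and 7.51 to 7.64 in MSC arrays, and DED array 1 overlapped with the MA arrays. In MA against MSC cells, where 15.4% of all genes rose and 17.6% fell, the counts of rises and falls were 4 and 1 in the acetyl-CoA list, 1 and 1 in the prenyl list, 3 and 2 in the lipoprotein list, 3 and 3 among the sterol carriers and 3 and 1 among the oxysterol enzymes. Those of the prenyl list and the sterol carriers, and the falls in the acetyl-CoA, lipoprotein and oxysterol lists, were near or under the shares over all genes. The falls in the lipoprotein list numbered 1 without MA array 2 or MSC array 1 or 2 and 3 without MA array 5, and the rises among the sterol carriers numbered 1 or 2 without MA array 1, 2 or 3 or MSC array 1, 2, 3 or 5.

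Adipocyte and dividing cell markers moved with some of these differences, and stromal markers moved both ways. Of the endothelial, epithelial and leukocyte markers only CD14 passed. In DED against MA cells, where 13.0% of all genes fell and 12.9% rose, 6 of 7 adipocyte markers fell. Among them was ADIPOQ, the adiponectin gene (limma, -2.96, SE 0.33, adjusted p = 8.39e-07). LEP, the remaining adipocyte marker, was higher without passing in limma (0.67, 95% interval 0.10 to 1.24, adjusted p = 0.0781), at levels under the negative controls' 95th percentile. With 1 array left out, 0 to 1 adipocyte markers rose. Of the dividing cell markers 5 of 5 fell. These falls came at the same time as those of 13 of 18 synthesis enzymes, and the markers' part in the enzymes' falls was not tested. Of 6 mesenchymal stromal markers 2 rose in DED against MA cells, THY1 (0.76, SE 0.14, adjusted p = 0.000308) and ENG (0.74, SE 0.11, adjusted p = 3.39e-05), and 2 fell, NT5E (-0.70, SE 0.12, adjusted p = 0.000139) and VIM (mean 13.92 in DED and 14.93 in MA cells, adjusted p = 2.03e-07). In MA against MSC cells 1 of the 6 rose and 2 fell, against 15.4% and 17.6% of all genes. In DED against MSC cells 1 rose and 4 fell, against 17.1% and 16.4% of all genes. The rises in both comparisons were near the share over all genes. Their list mean was 13.76 to 14.08 in DED, 13.76 to 14.02 in MA and 14.01 to 14.23 in MSC arrays, and their part in these results was not tested. Of 5 endothelial markers 0 passed in limma in any comparison, with 0 also at an unadjusted p under 0.05, and the list mean was 5.22 to 5.47 in DED, 5.25 to 5.57 in MA and 5.26 to 5.51 in MSC arrays. Of 6 epithelial markers 0 passed in limma in any comparison, with 0 also at an unadjusted p under 0.05 in each of the 3, and the mean of the list was 6.08 to 6.26 in DED, 6.02 to 6.09 in MA and 6.04 to 6.33 in MSC arrays. EPCAM, CDH1 and KRT18 averaged 4.35, 4.51 and 4.71 in DED cells, under the median of the negative controls. KRT19 and KRT7 averaged 6.77 and 7.39 in DED cells, between that median and the 95th percentile, and KRT8 lay above the 95th percentile in every group, at 9.16 in DED, 8.99 in MA and 8.94 in MSC cells. MDA-MB-231 cells are themselves known to express little CDH1. Of 6 leukocyte markers CD14 passed, with 6.91 ± 0.58 in DED, 5.51 ± 0.25 in MA and 5.51 ± 0.35 in MSC cells, all under the negative controls' 95th percentile, and PTPRC, the pan-leukocyte marker, did not pass.

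Promoter sequences from RefSeq (build GRCh38.p14) were available for 26 of the 29 genes. They are given because 13 of the 18 enzymes fell in DED against MA cells, and because SREBP2 is known to act beside the factor NF-Y, which binds CCAAT boxes, and Sp1, which binds GC boxes. The 250 bases before each gene start were searched on both strands for the letters CCAAT, for a sterol response element core, TCACNCCAC, and for the GC box, GGGCGG. No match of one motif overlapped a match of another. A CCAAT box was found for 18 of the 26 genes (69.2%), against 40.5% of 14250 genes on the array with a promoter in the table, a gene with several starts counting if any start held it. By call in DED against MA cells, 13 of 14 genes that fell, 1 of 7 that rose and 4 of 5 that passed neither way held a CCAAT box. Most genes that fell were synthesis enzymes, so that call and role cannot be told apart in this split. The sterol response element core was found for 1 of the 26 (3.85%), against 1.21% of genes, and a GC box for 25 of the 26 (96.2%), against 63.3%. A GC box was held by 13 of 14 genes that fell, 7 of 7 that rose and 5 of 5 that passed neither way. These counts are a description with no test, and a missing match says only that these letters are not in this window.

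The promoters of MVD, EBP and NSDHL, the largest falls among genes with 1 start in the table, are set beside those of CH25H and ABCA1, the largest rises among such genes, and of SREBF2, shown for its core. They run 5′ to 3′ along the gene and end at the base before its start. Capitals mark CCAAT boxes (CCAAT, or ATTGG on the other strand) and the sterol response element core. MVD lies on chr16:88663092-88663341 (minus strand), EBP on chrX:48521558-48521807 (plus strand), NSDHL on chrX:152830813-152831062 (plus strand), CH25H on chr10:89207318-89207567 (minus strand), ABCA1 on chr9:104928156-104928405 (minus strand) and SREBF2 on chr22:41832855-41833104 (plus strand).
MVD: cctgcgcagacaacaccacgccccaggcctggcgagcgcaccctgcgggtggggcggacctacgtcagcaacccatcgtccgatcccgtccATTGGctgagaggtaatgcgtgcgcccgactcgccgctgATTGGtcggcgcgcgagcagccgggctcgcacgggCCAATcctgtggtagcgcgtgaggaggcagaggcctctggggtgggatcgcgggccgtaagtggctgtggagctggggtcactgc
EBP: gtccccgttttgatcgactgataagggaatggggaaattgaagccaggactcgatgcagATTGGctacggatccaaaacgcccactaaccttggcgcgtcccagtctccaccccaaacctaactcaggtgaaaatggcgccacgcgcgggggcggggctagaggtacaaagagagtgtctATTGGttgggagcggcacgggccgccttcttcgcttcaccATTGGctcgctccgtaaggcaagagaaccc
NSDHL: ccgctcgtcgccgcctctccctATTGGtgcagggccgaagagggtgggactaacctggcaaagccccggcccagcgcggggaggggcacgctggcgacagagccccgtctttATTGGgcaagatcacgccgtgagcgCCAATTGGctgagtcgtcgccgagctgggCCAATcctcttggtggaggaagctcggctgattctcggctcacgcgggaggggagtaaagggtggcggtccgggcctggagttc
CH25H: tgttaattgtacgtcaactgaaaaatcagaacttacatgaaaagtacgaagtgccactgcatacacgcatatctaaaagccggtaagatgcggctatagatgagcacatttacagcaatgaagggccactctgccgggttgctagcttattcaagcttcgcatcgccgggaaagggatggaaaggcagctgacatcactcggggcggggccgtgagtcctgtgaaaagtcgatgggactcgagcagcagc
ABCA1: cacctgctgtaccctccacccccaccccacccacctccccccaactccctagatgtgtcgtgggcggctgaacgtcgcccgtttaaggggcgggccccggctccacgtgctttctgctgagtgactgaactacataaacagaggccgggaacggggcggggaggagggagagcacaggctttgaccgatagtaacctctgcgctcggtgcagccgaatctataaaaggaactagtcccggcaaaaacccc
SREBF2: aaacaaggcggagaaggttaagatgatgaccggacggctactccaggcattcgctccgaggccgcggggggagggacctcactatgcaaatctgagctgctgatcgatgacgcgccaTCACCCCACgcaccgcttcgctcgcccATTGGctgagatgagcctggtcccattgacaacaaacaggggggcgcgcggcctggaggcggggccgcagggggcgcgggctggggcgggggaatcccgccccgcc
MVD and EBP hold 3 CCAAT boxes each and NSDHL holds 5, of which 2 on opposite strands share letters. CH25H and ABCA1 hold none in this window, and SREBF2 holds 1 together with the core TCACCCCAC, at 133 to 125 bases before its start, the match that gave the 1 of 26 above.

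**Figure D5:**
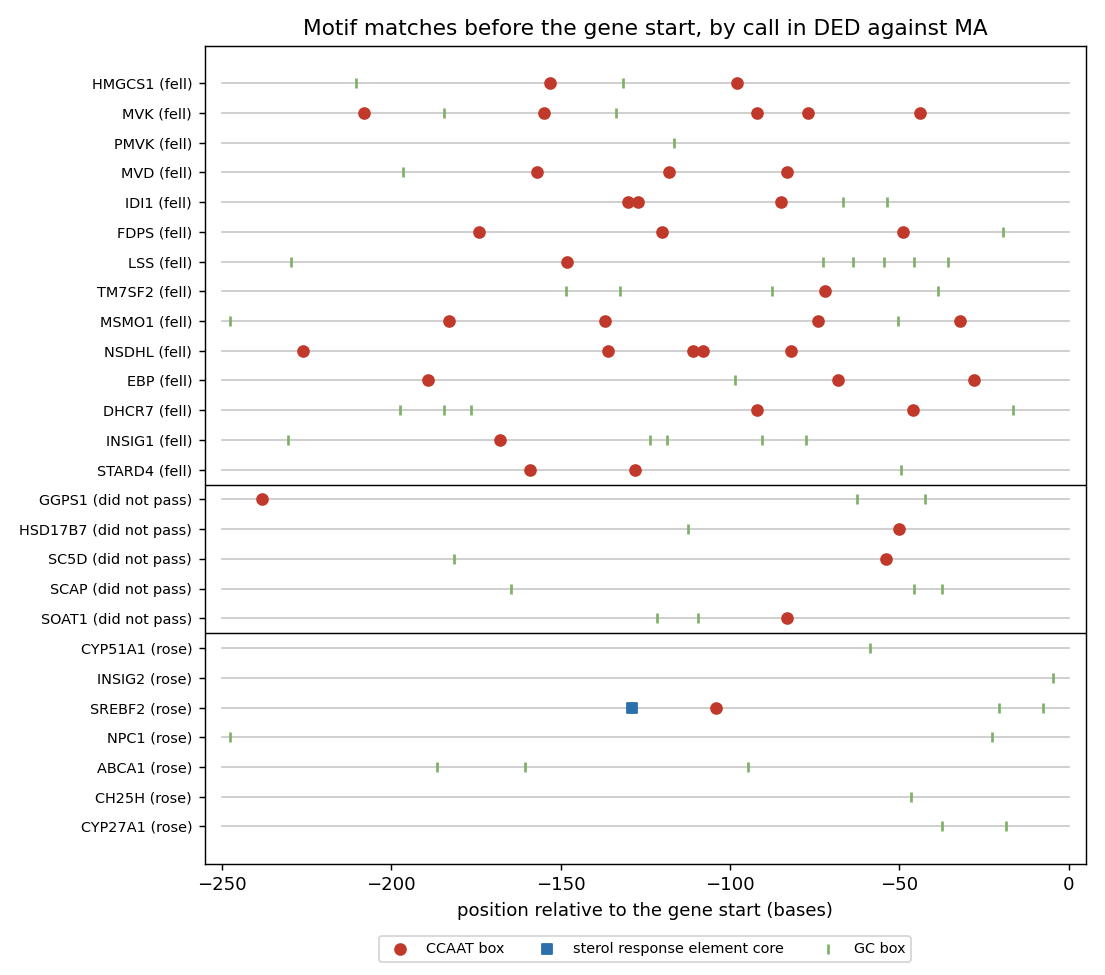
Positions of CCAAT boxes (circles), sterol response element cores (square) and GC boxes (ticks) in the 250 bases before the start of 26 cholesterol genes, grouped by their call in DED against MA cells, with the start with the most CCAAT boxes drawn where a gene has several. CCAAT boxes appear in 13 of 14 genes that fell, 4 of 5 that passed neither way and 1 of 7 that rose. The last is SREBF2, which also carries the only sterol core.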

How the data were processed

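The titles of the samples put the 15 arrays into 3 groups of 5. The deposited table holds log2 intensity values that the authors made with RMA in Transcriptome Analysis Console, as the submitters' processing notes state. RMA scales arrays to a common distribution, so a shift of all genes together cannot be read from the values. Its versions and genome build are not stated in the sources used here.

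The platform annotation names 1 gene for 17709 of 24351 probe sets and several for 0. A further 3739 are unnamed transcripts and 2903 are controls, 612 of them negative. For 20 genes with several probe sets that with the highest mean was kept, which left 17687 genes, with no filter on dim genes. The model was fitted in R 4.3.3 by limma 3.58.1, with lmFit, eBayes and a mean for each group over all 15 arrays. Tests were two-sided with Benjamini-Hochberg adjustment over all 17687 genes and a threshold of 0.05. The SE is that of the moderated difference. The 5 arrays per group limit the precision. Promoters and figures were handled in Python 3.11.15 with matplotlib 3.10.9. The fit was tested on simulated data.

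Every gene of the list found on the array is named. Of each related list, up to 2 of the largest rises and 2 of the largest falls past the test are named per comparison, of which fewer are printed, and the further named genes of these lists (NR1H3, SREBF1) were chosen after their values were seen. Marker lists are given as counts with up to 3 genes, except that all epithelial markers and the 4 stromal markers past the test in DED against MA cells are named, a choice made after their values were seen. LEP was also named after its value was seen. The genes, the lists and the tests were chosen with earlier results of these data known. Alternatives were quantile normalization, 1 common array median, genes under the 25th percentile of mean level removed, every named probe set tested, a robust fit with an intensity trend, array weights, only the 2 groups compared, a replicate block, DED arrays 1 and 3 left out, and each array left out in turn.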

Additional observations from a re-analysis of the deposited data

Results flagged for a closer look

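In groups of 5 arrays, a value was marked when its gap to the nearest other array exceeded 0.71 of the group's range, which chance gives in about 1 of 20 groups. It was exceeded in 6 of 87 groups. DED array 3 had the highest DHCR7 value at 9.81, against 8.78 to 9.07 in the other DED arrays, and the lowest INSIG2 value at 11.58, against 12.14 to 12.24. DED array 4 had the lowest FDPS value at 10.34, against 10.65 to 10.69. MA array 4 had the lowest GGPS1 value at 10.66, against 11.09 to 11.19 in the other MA arrays. MSC array 2 had the highest DHCR7 value at 10.54, against 9.96 to 10.12, and the highest PMVK value at 8.06, against 7.51 to 7.61 in the other MSC arrays.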

How the results depend on the processing

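Across 24 alternatives, 15 of which left out 1 array, 75 of 87 results for single genes kept their call in all of those run and 12 changed it in some, and 0 changed sign among called values. All 12 are named in the report except SC5D in MA against MSC cells, which passed with array weights (adjusted p = 0.0476) and with only the 2 groups compared (adjusted p = 0.0469). With 1 array left out, 14 to 15 of the 29 genes fell and 6 to 9 rose in DED against MA cells, 11 to 13 rose and 5 to 6 fell in MA against MSC cells, and 6 to 7 rose and 9 to 10 fell in DED against MSC cells. Deviations of same-numbered arrays of 2 groups from their group means correlated at -0.108 to 0.087 over all genes. These values cannot show whether the numbers pair the samples, because differences between single arrays can hide a shared effect. With a replicate block 7 genes rose and 15 fell in DED against MA cells, 12 rose and 6 fell in MA against MSC cells, and 6 rose and 9 fell in DED against MSC cells, where NSDHL lost its call. The median over all genes moved by under 0.05 with either normalization. Levels near the negative controls limit what can be said of ABCG1, HSD17B7, CYP27A1, MVK, PMVK and HMGCS1.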
